A study of Mus musculus with 6 samples.

Results

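The potassium channel family was taken as every protein-coding mouse gene whose symbol is Kcn followed by further letters and a number, which gave 93 of the 47643 gene identifiers counted. The 93 genes held 30 voltage-gated pore subunits (Kcna, Kcnb, Kcnc, Kcnd, Kcnh and Kcnq), 10 modifier subunits that form no channel of their own (Kcnf, Kcng, Kcns and Kcnv) and 8 calcium- or sodium-activated channels with their relative Kcnu1 (Kcnma, Kcnn, Kcnt and Kcnu). They also held 15 inward rectifiers (Kcnj), 14 tandem-pore leak channels (Kcnk) and 16 auxiliary subunits (Kcnab, Kcne, Kcnip and Kcnmb). RNA came from dorsal root ganglia of CD-1 mouse embryos on embryonic day 13, treated with a lentivirus carrying a short hairpin against UHRF1 (shUHRF1, 3 libraries) or a control hairpin (shControl, 3 libraries), so both groups carried a lentivirus. The study asked which transcripts differ after knockdown of UHRF1, a protein that reads hemimethylated CpG and guides the maintenance methyltransferase to it, in neurons that had not been injured. SMARTer cDNA was made from total RNA depleted of ribosomal RNA. The labels do not say whether libraries came from separate cultures or pooled embryos, nor how many hairpin sequences were used, so p-values reflect only how far these libraries spread, and that spread may be technical.

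Potassium channels pull the membrane potential towards rest, and a sensory neuron's set of them decides how easily it fires, how broad its spikes are and how often it repeats them. Voltage-gated subunits assemble as tetramers within a subfamily, and modifier and auxiliary subunits change their gating and their traffic to the membrane. Tandem-pore channels set the resting leak and in sensory neurons respond to stretch, temperature, lipids and acid, while inward rectifiers serve both neurons and the satellite glia that clear potassium around them.

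The libraries held 15599776 to 22382813 reads in genes. Uhrf1 was near the detection limit, with 2, 1 and 5 reads in shUHRF1 replicates 1, 2 and 3 and 8, 6 and 5 in the shControl replicates, and was not tested, so the knockdown could not be checked from it. Values of single libraries follow that order below. All 11 neuron markers were detected in every library, and 10 of them were not called between the groups, with only Tubb3 lower in shUHRF1. Their summed level was 12550, 15880 and 15820 counts per 1000000 reads in genes (CPM, on TMM-scaled library sizes) in shUHRF1 and 16500, 15740 and 17640 CPM in shControl. Markers of other cells differed. All 6 fibroblast markers were higher in shUHRF1, at a summed 31.3, 58.0 and 93.3 CPM in shUHRF1 and 5.05, 3.76 and 5.88 CPM in shControl. Of 6 tested glial markers, 4 were higher in shUHRF1, among them Sox10, Fabp7 and Erbb3, and Mbp was lower. The glial sum, carried mostly by S100b and Mbp, was 100.8, 380.3 and 291.2 CPM in shUHRF1 and 405.1, 337.4 and 412.0 CPM in shControl. Of the other lists, 1 of 3 tested macrophage markers (Ptprc) and 1 of 3 tested endothelial and mural markers (Pdgfrb) were higher in shUHRF1. The macrophage sum was 10.7 to 13.3 CPM in shUHRF1 and 3.56 to 8.42 CPM in shControl, and the endothelial and mural sum was 13.4 to 18.8 CPM in shUHRF1 and 6.34 to 7.72 CPM in shControl. The part of these cells in the channel results was not tested. In RNA from a whole tissue, fewer cells of a type and less RNA per cell cannot be told apart.

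Potassium channel genes were called in both directions. Of the 93 members, 65 had enough reads to be tested, and 29 of these 65 (44.6%) passed an adjusted p below 0.05 in edgeR's quasi-likelihood test with Benjamini-Hochberg adjustment over all genes, against 24% of all 15573 genes tested. The called members were 12 that rose in shUHRF1 (18.5% of those tested, against 11.6% of all genes) and 17 that fell (26.2%, against 12.4%). The median per-length level over all libraries (RPKM, the CPM per kilobase of exon) was 1.31 RPKM for members called higher, 4.07 RPKM for those called lower and 4.53 RPKM for those not called. Over all genes the same medians were 1.97 RPKM, 11.1 RPKM and 3.53 RPKM, and genes called higher were again at a lower level than genes called lower. The median log2 fold change of shUHRF1 over shControl was -0.01 over the 65 tested members and 0.02 over all genes. Log2 fold changes of single genes are given ± SE, from 3 libraries in each group. The median size of the fold change without sign was 0.76 over members and 0.35 over all genes.

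The 3 shUHRF1 libraries lay entirely above the 3 shControl libraries in 18 of the 65 tested members (27.7%, against 21.7% of all genes) and entirely below them in 21 (32.3%, against 22.3%). All 29 called members were among these. In 15 of the 17 members that fell, shUHRF1 replicate 1 was the lowest library, and in the other 2 it was shUHRF1 replicate 2. A fit with the replicate number as a block called 13 of 65 tested members higher (against 15.3% of all genes) and 20 lower (against 15.7%). With upper-quartile scaling the median over all genes was 0.14 in place of 0.02 on the log2 scale. The counts of 65 tested members were then 16 higher (against 16.1% of all genes) and 13 lower (against 8.85%). Single libraries moved the counts, for members and for all genes. Without shControl replicate 3 the counts were 5 higher and 9 lower of 66 tested members (against 5.08% and 5.85% of all genes). Leaving out shControl replicate 1 gave 6 and 10 of 66 (against 5.66% and 6.58%). Without shControl replicate 2 they were 6 and 14 of 67 (against 7.58% and 10.1%). Leaving out shUHRF1 replicate 3 gave 8 and 9 of 66 (against 6.43% and 7.23%). Without shUHRF1 replicate 1 they were 8 and 14 of 67 (against 9.32% and 10.8%). Leaving out shUHRF1 replicate 2 gave 9 and 19 of 67 (against 11.3% and 12.9%). With library pairs 1 and 3 only they were 6 and 17 of 67 (against 8.73% and 10.7%). All 29 kept their sign in every fit, and 11 were called in every fit that held the gene: Kcnab1, Kcnh1, Kcnh5, Kcnj10, Kcnk2, Kcnk4, Kcnk12, Kcnk18, Kcnq1, Kcnq5 and Kcns1. Of these, Kcnj10 and Kcnq1 had enough reads for a test only in shUHRF1, and Kcnk18 only in shControl.

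**Figure D1:**
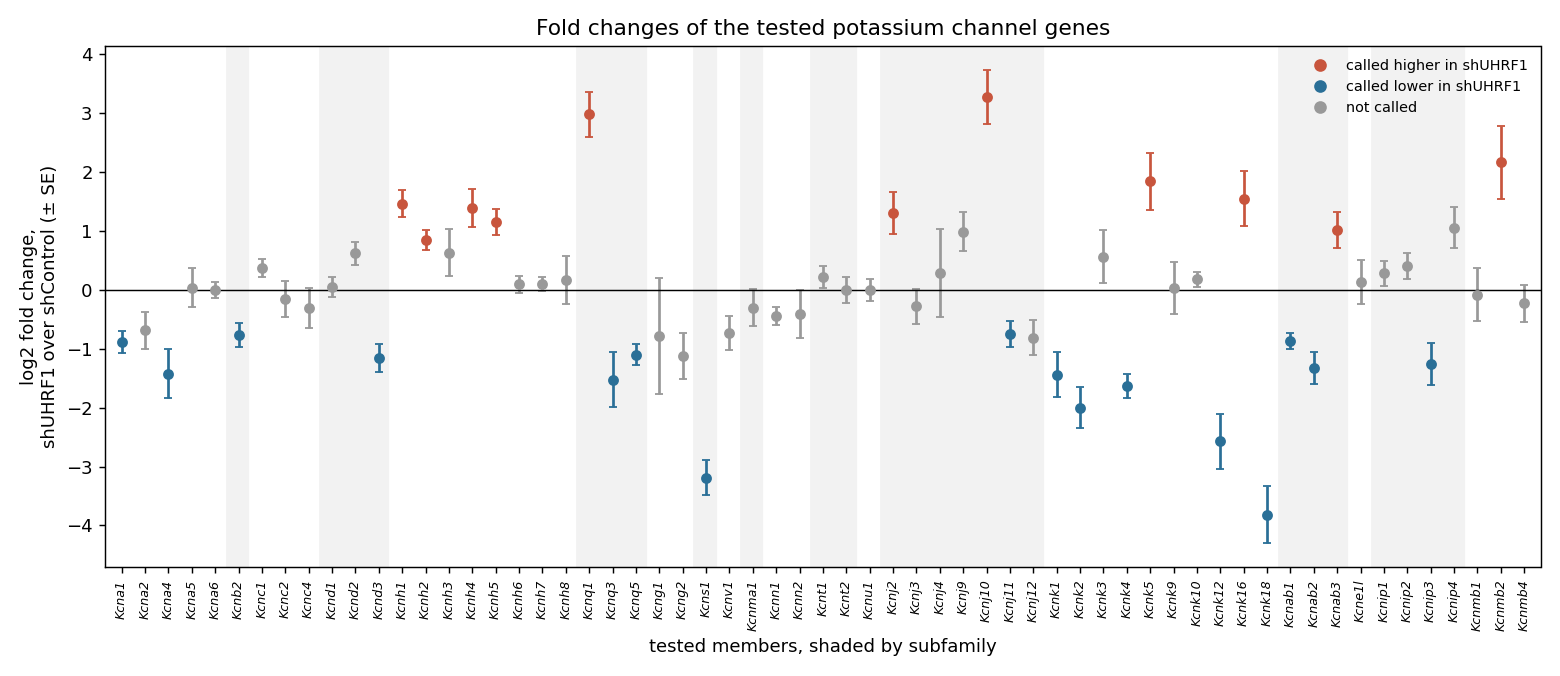
Log2 fold change of shUHRF1 over shControl (vertical axis, ± SE) for 61 of the 65 tested members, ordered and shaded by subfamily. Members called higher are red (11 shown), those called lower are blue (16 shown) and those not called are grey (34 shown). Of the 8 Kcnh genes 4 are red and none is blue, while 5 of the 10 tested Kcnk genes are blue and 2 are red. Over all genes tested, 11.6% were called higher and 12.4% lower.

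Called members had annotated starts both rich and poor in CpG, the dinucleotide on which UHRF1 acts. For 6 genes, stretches of RefSeq's GRCm38.p6 sequence, each from 250 bases before to 50 bases after the start, are printed 5′ to 3′ with each CG in capitals. Kcnk18 and Kcns1 are the largest falls among the called members, Kcnj10 is the largest rise, Kcnh1 is the largest rise of its subfamily, and Kcnk5 and Kcnk16 are neighbours that both rose.
Kcnk18 (chr19:59219398-59219697, plus strand): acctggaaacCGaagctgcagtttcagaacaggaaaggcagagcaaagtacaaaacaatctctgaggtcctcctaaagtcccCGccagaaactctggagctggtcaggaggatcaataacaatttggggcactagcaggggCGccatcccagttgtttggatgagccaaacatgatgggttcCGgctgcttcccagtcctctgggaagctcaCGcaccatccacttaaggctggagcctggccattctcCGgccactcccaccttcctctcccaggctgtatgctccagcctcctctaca
Kcns1 (chr2:164171064-164171363, minus strand): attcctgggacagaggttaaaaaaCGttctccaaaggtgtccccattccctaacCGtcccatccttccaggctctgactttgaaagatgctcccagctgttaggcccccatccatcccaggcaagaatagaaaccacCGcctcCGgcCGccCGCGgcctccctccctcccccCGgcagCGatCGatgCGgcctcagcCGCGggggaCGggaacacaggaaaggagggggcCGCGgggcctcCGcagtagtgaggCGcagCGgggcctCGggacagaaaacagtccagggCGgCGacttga
Kcnj10 (chr1:172340960-172341259, plus strand): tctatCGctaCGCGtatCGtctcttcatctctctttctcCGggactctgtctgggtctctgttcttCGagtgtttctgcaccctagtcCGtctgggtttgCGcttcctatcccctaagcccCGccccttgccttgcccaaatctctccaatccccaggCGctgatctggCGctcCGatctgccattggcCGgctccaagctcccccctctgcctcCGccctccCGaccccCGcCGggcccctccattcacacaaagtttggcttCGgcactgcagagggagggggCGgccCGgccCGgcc
Kcnh1 (chr1:192190527-192190826, plus strand): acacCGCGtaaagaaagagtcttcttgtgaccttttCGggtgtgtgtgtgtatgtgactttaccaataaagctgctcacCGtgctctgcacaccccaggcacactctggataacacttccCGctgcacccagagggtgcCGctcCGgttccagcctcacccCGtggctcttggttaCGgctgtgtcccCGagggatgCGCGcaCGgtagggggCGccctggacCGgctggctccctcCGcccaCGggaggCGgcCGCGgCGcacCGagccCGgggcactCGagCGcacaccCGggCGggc
Kcnk5 (chr14:20181733-20182032, minus strand): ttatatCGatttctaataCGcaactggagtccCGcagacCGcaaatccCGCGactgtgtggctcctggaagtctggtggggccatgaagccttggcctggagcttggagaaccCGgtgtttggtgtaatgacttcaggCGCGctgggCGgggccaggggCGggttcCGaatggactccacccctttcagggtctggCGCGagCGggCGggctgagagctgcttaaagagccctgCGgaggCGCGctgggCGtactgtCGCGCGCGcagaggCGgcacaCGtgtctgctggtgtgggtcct
Kcnk16 (chr14:20269220-20269519, minus strand): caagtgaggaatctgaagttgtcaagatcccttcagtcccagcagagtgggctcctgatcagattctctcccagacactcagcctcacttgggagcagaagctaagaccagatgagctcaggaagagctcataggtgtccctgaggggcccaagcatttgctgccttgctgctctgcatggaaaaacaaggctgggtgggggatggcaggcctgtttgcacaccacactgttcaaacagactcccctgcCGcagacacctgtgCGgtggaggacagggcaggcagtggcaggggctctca
The 300 bases hold 6 CpG at Kcnk18 and 22 at Kcns1, so the deepest falls came from one CpG-poor and one CpG-rich start. They hold 21 CpG at Kcnj10 and 27 at Kcnh1. The neighbours that both rose differ most, with 26 CpG at Kcnk5 and 2 at Kcnk16.

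Set against base composition, CpG content around the start overlapped widely between members that rose and members that fell. The RefSeq table held 68 of the 93 members, with values averaged where a gene has several starts. The median ratio of observed to expected CpG was 0.56 over 9 members called higher, 0.51 over 12 called lower and 0.48 over 24 tested but not called. Over all genes tested it was 0.65 for 1334 called higher, 0.79 for 1484 called lower and 0.75 for 8240 not called. No methylation was measured in these files. The gene Rest, whose product represses many neuronal genes through RE1 elements, had 6.601, 3.12 and 5.86 CPM in shUHRF1 and 0.639, 1.101 and 1.1 CPM in shControl, a log2 fold change of 2.45 ± 0.38 (edgeR adjusted p = 0.00414). The left RE1 arm TTCAGCACC was sought on both strands. It stood in the start region of 1 of 68 members, Kcnh6, and in 0.371% of 32851 regions of that length. The right arm GGACAGCGC stood in 1 of 68 members, Kcnj4, and in 0.405% of regions. Members with several starts were counted once and regions singly, so the member and region figures differ in unit. Elements outside these regions or with other letters were not sought, so these counts do not show which members have an RE1.

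**Figure D2:**
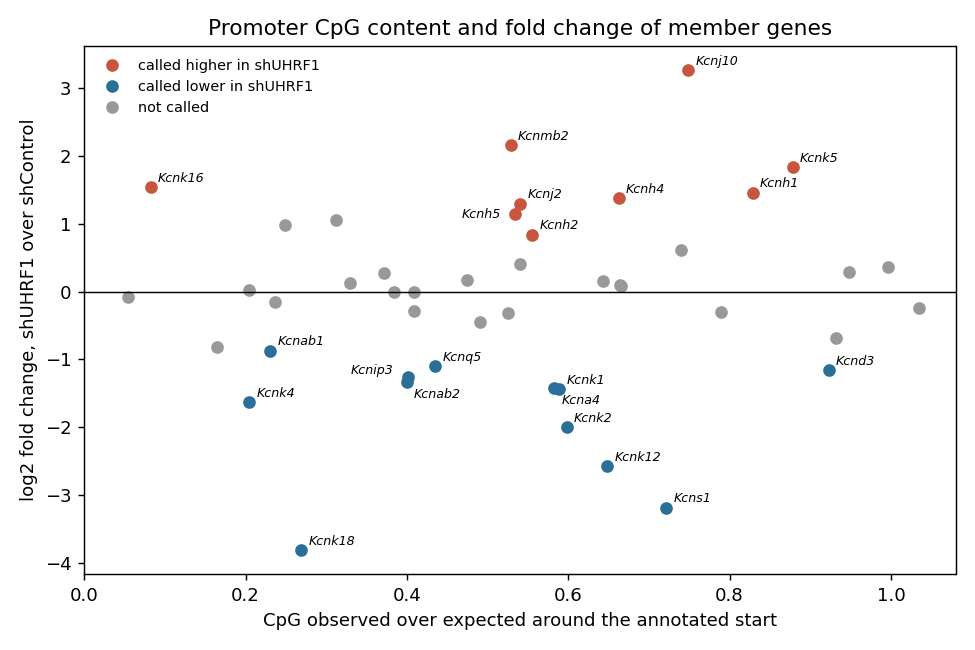
Observed over expected CpG in the 300 bases around annotated starts (horizontal axis) against log2 fold change of shUHRF1 over shControl (vertical axis) for the 45 tested members in the RefSeq table. Red points (called higher) and blue points (called lower) both run from low to high CpG, with Kcnk16 and Kcnk5 near the ends of the red points and Kcnk4 and Kcnd3 at the ends of the blue ones.

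Kcna genes encode the low-threshold Kv1 channels of axons and terminals. They divided into 2 that fell (against 12.4% of all genes) and 3 tested members that did not pass. Kcna1, whose product is a dendrotoxin-sensitive subunit that restrains repetitive firing, had 60.9, 94.9 and 68.2 CPM in shUHRF1 and 160.3, 127.5 and 126.4 CPM in shControl. Each shUHRF1 library lay below each shControl library, and the log2 fold change was -0.89 ± 0.18 (edgeR adjusted p = 0.0126). Kcna4, the fast-inactivating A-type member, had 4.58, 17.7 and 9.88 CPM in shUHRF1 and 29.6, 31.5 and 24.9 CPM in shControl. Its shUHRF1 values were widely spread and lay below the narrow shControl range, with a log2 fold change of -1.42 ± 0.41 (adjusted p = 0.039). Kcna6 carried the most Kcna RNA per length, 38.6 RPKM in shUHRF1 and 38.8 RPKM in shControl. It had 192.9, 265.4 and 230.0 CPM in shUHRF1 and 210.6, 248.8 and 233.1 CPM in shControl, which overlap, and was not called (log2 fold change -0.01 ± 0.14). Kcna2, the usual axonal partner of Kcna1, had 37.6, 104.0 and 73.04 CPM in shUHRF1 and 118.4, 110.3 and 117.2 CPM in shControl, without overlap but with an adjusted p of 0.143. Kcna5, Kcna1 and Kcna6 lie in a row on chromosome 6 with gaps of 104984 and 61944 bases (GRCm38), and only Kcna1 was called. The Kcna1 call was lost without shUHRF1 replicate 3 (adjusted p = 0.0556). The Kcna4 call was lost without shUHRF1 replicate 3 (0.119) and without shControl replicate 1 (0.098), 2 (0.0912) or 3 (0.0818), and its log2 fold change was -2.01 without shUHRF1 replicate 2.

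All 3 genes for the cytosolic beta subunits that bind Kv1 channels were called. In shUHRF1, 2 were lower (against 12.4% of all genes) and 1 was higher (against 11.6%). Kcnab2, which promotes surface delivery of Kv1 channels and carries an aldo-keto reductase fold, had the highest per-length level of all 93 members in both groups. It had 228.5, 465.2 and 313.5 CPM in shUHRF1 and 1046, 665.9 and 821.1 CPM in shControl, and no shUHRF1 library reached the lowest shControl library. Its log2 fold change was -1.33 ± 0.27 (edgeR adjusted p = 0.0115). Kcnab1, which confers fast inactivation on Kv1 channels, had 37.9, 30.6 and 34.05 CPM in shUHRF1 and 69.9, 54.3 and 63.1 CPM in shControl. Both ranges were narrow and apart, with a log2 fold change of -0.87 ± 0.14 (adjusted p = 0.00471). Kcnab3, the rarest beta subunit, went the other way with 7.45, 5.18 and 4.94 CPM in shUHRF1 and 4.01, 2.01 and 2.73 CPM in shControl, where the highest library of each group was replicate 1. Its log2 fold change was 1.01 ± 0.31 (adjusted p = 0.0481). Kcnab2 shares 125 exon bases with Gm16334 on the same strand, and how reads of such bases were assigned is not stated. The Kcnab2 call was lost without shUHRF1 replicate 3 (0.0513). The Kcnab3 call was lost without shUHRF1 replicate 1 (0.116), 2 (0.0586) or 3 (0.0822) or shControl replicate 2 (0.127) or 3 (0.153). It was also lost with library pairs 1 and 3 only (0.122).

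The make-up of the channel transcripts differed between the groups. Per length, the 3 Kcnab genes made up 12.1%, 16.2% and 13.8% of the summed level of the 93 genes in shUHRF1, against 30.2%, 23.5% and 25.2% in shControl. The 8 Kcnh genes made up 23.4%, 21.7% and 21.5% in shUHRF1 and 11.3%, 11.9% and 13.2% in shControl, so that Kcnh had the largest mean share of the subfamilies in shUHRF1, where Kcnab had it in shControl. The Kcna share overlapped between the groups, at 13.1%, 15.4% and 14.6% in shUHRF1 and 13.98%, 16.5% and 13.7% in shControl. The summed level of all 93 genes was 397.8, 547.3 and 448.5 RPKM in shUHRF1 and 652.8, 537.8 and 617.4 RPKM in shControl, with shUHRF1 replicate 2 inside the shControl range. No test was made of these sums, whose parts add to a fixed total.

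**Figure D3:**
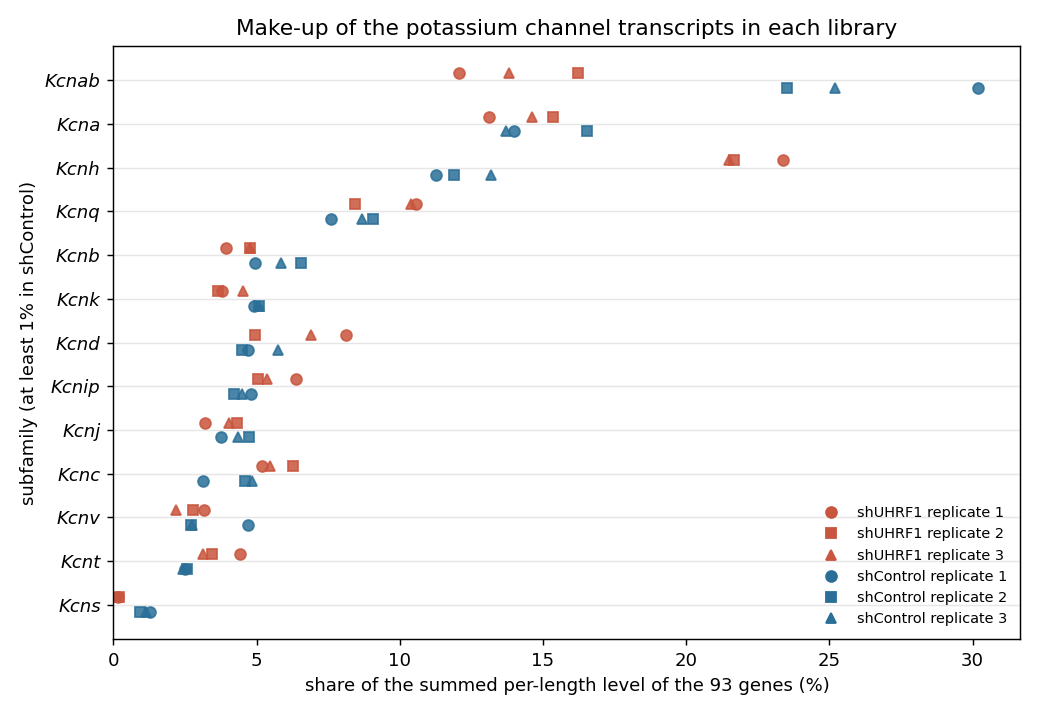
Share of the summed per-length level of the 93 genes (horizontal axis, %) held by each subfamily with at least 1% in shControl, 1 point per library, shUHRF1 red and above, shControl blue. Kcnab points lie at 12.1% to 16.2% in shUHRF1 and 23.5% to 30.2% in shControl, and Kcnh points at 21.5% to 23.4% in shUHRF1 and 11.3% to 13.2% in shControl.

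All 8 Kcnh genes were tested, and 4 rose (against 11.6% of all genes), none fell (against 12.4%) and 4 were not called. They encode the EAG, ERG and ELK channels, slow voltage-gated channels with a cyclic nucleotide binding homology domain. Kcnh1, an EAG channel whose start is printed above, had 32.7, 56.6 and 34.1 CPM in shUHRF1 and 14, 16.4 and 14.5 CPM in shControl. The lowest shUHRF1 library had 1.996 times the level of the highest shControl library, and the log2 fold change was 1.46 ± 0.23 (edgeR adjusted p = 0.00418). Kcnh5, the other EAG gene, had 30.04, 19.6 and 17.5 CPM in shUHRF1 and 9.52, 11.3 and 9.66 CPM in shControl, with replicate 1 the highest of the shUHRF1 libraries. Its log2 fold change was 1.14 ± 0.22 (adjusted p = 0.00979). Kcnh4, an ELK gene, had 13.4, 5.95 and 8.14 CPM in shUHRF1 and 3.95, 2.91 and 3.68 CPM in shControl. The shControl values lay close together below all shUHRF1 values, with a log2 fold change of 1.38 ± 0.32 (adjusted p = 0.018). Kcnh2, the ERG gene that also carries the rapid delayed rectifier current of the heart, had 172.5, 253.1 and 193.1 CPM in shUHRF1 and 111.8, 101.6 and 132.2 CPM in shControl. The groups did not overlap, with a log2 fold change of 0.84 ± 0.17 (adjusted p = 0.0113), and its per-length rank among the 93 members was 2 in shUHRF1 and 6 in shControl.

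Of the remaining Kcnh genes, Kcnh6, another ERG gene, had the highest per-length level of the subfamily in shControl, at 41.3 RPKM in shUHRF1 and 38.9 RPKM in shControl, while Kcnh2 was slightly above it in shUHRF1, at 42.6 RPKM in shUHRF1 and 23.8 RPKM in shControl. Kcnh6 had 131.2, 165.5 and 143.3 CPM in shUHRF1 and 141.1, 116.2 and 156.7 CPM in shControl, which overlap (log2 fold change 0.09 ± 0.15). Kcnh7, the other ERG gene, lay at 69.5 to 78.5 CPM in shUHRF1 and 64.0 to 75.2 CPM in shControl and was not called either. Kcnh3 and Kcnh8, both ELK genes, stayed below 3 CPM in every library. Per length, Kcnh1 was 0.121, 0.166 and 0.115 of Kcnh6 in shUHRF1 and 0.0480, 0.0682 and 0.0448 of it in shControl. The Kcnh4 call was lost without shControl replicate 1 (edgeR adjusted p = 0.0522), 2 (0.0593) or 3 (0.065), and the Kcnh2 call without shControl replicate 1 (0.0538).

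Kcnq genes encode the M current, a slow non-inactivating brake on firing, and Kcnq3 and Kcnq5 are among those that carry it in neurons. Kcnq5 had 38.6, 63.7 and 50.8 CPM in shUHRF1 and 110.0, 108.8 and 109.6 CPM in shControl. The shControl libraries were almost equal, each shUHRF1 library was lower, and the log2 fold change was -1.103 ± 0.17 (edgeR adjusted p = 0.00468). Kcnq3, whose product joins other subunits of the subfamily in M channels, had 2.92, 13.9 and 11.1 CPM in shUHRF1 and 23.5, 28.6 and 27.9 CPM in shControl. shUHRF1 replicate 1 was far below the others, and the log2 fold change was -1.52 ± 0.46 (adjusted p = 0.0469).

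Kcnq1, which pairs with Kcne subunits in heart and epithelia, was rare and rose. It had 1.302, 2.002 and 1.695 CPM in shUHRF1 and 0.232, 0.194 and 0.191 CPM in shControl, or 29, 34 and 35 reads in shUHRF1 and 4, 3 and 4 reads in shControl. The lowest shUHRF1 library had 5.61 times the level of the highest shControl library, and the log2 fold change was 2.97 ± 0.38 (edgeR adjusted p = 0.00202). Kcnq1 lies in an imprinted region and shares 121 exon bases with the antisense RNA Kcnq1ot1, which had 112.8, 192.1 and 131.1 CPM in shUHRF1 and 69.4, 158.5 and 72.4 CPM in shControl and was not called (adjusted p = 0.29). With the strand setting unknown, reads of the antisense RNA within Kcnq1 exons cannot be told apart from Kcnq1 reads, and the share of such reads was not tested. Kcnq5 shares 237 exon bases with Gm26580 on the opposite strand, which had far fewer reads and fell too (log2 fold change -1.51 ± 0.35). The Kcnq3 call was lost without shUHRF1 replicate 3 (0.0992) and without shControl replicate 1 (0.0918), 2 (0.101) or 3 (0.12). It was also lost with upper-quartile scaling (0.0567), with library pairs 1 and 3 only and when 3 libraries had to reach 2 CPM (0.0537).

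**Figure D4:**
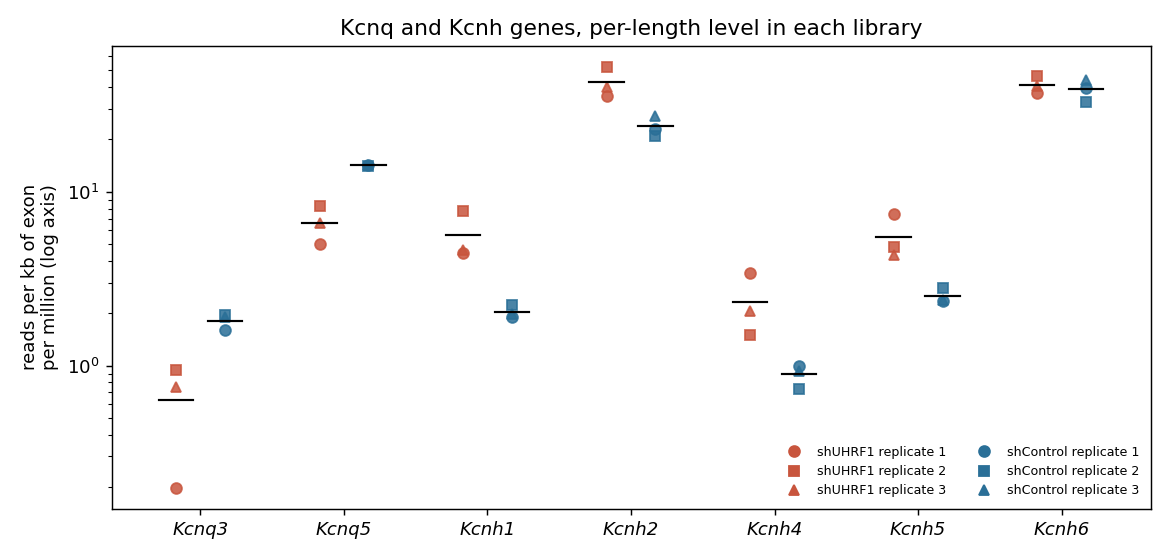
Per-length level (vertical axis, RPKM, log scale) of the M-current genes Kcnq3 and Kcnq5 and of 5 Kcnh genes in each library, shUHRF1 red and left, shControl blue and right, with group means as bars. Kcnq3 and Kcnq5 lie lower in shUHRF1, Kcnh1, Kcnh2, Kcnh4 and Kcnh5 lie higher, and Kcnh6 overlaps.

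Kcnb genes encode the Kv2 delayed rectifiers, and the modifier Kcns1 joins Kv2 channels and shifts their gating. Kcns1 fell steeply, and Kcnb2 fell less. Kcns1 had 1.44, 2.65 and 1.74 CPM in shUHRF1 and 21.5, 13.1 and 18.2 CPM in shControl. The lowest shControl library had 4.94 times the level of the highest shUHRF1 library, and the log2 fold change was -3.19 ± 0.29 (edgeR adjusted p = 0.000772). Kcnb2 had 110.6, 199.4 and 170.1 CPM in shUHRF1 and 248.4, 309.9 and 259.9 CPM in shControl, with a log2 fold change of -0.77 ± 0.21 (adjusted p = 0.0338). Its highest shUHRF1 library was replicate 2, and it lay below the lowest shControl library. Per length, Kcns1 was 0.0727, 0.0743 and 0.0573 of Kcnb2 in shUHRF1 and 0.484, 0.236 and 0.391 of it in shControl.

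Other modifiers gave no call, against 24% of all genes. Kcnv1, a modifier of Kv2 channels and the most abundant modifier here, had 57.4, 69.7 and 45.2 CPM in shUHRF1 and 140.8, 66.9 and 77.9 CPM in shControl, where shUHRF1 replicate 2 exceeds shControl replicate 2 (adjusted p = 0.101, and 0.0466 with DESeq2). Kcng2 had 1.302, 4.47 and 3.34 CPM in shUHRF1 and 6.56, 6.34 and 6.89 CPM in shControl, with an edgeR adjusted p of 0.0733, and of 0.0341 with the replicate block and 0.0296 with DESeq2. Kcns2 was not tested at 3, 7 and 7 reads in shUHRF1 and 29, 5 and 15 reads in shControl, and neither was Kcnf1 at no more than 12 reads in any library. The Kcnb2 call was lost without shUHRF1 replicate 3 (0.0847), without shControl replicate 1 (0.0673), 2 (0.0894) or 3 (0.0803) and with upper-quartile scaling (0.0605).

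The A-type Kv4 channel genes (Kcnd, 3 tested) and those of their calcium-sensing KChIP subunits (Kcnip, 4 tested) gave few calls. Kcnd3 and Kcnip3 fell (against 12.4% of all genes) and none was called higher (against 11.6%). Kcnd3 had 15.4, 19.7 and 28.6 CPM in shUHRF1 and 43.6, 40.3 and 58.2 CPM in shControl. All shUHRF1 libraries lay below all shControl libraries, with a log2 fold change of -1.16 ± 0.24 (edgeR adjusted p = 0.0127). Kcnd2, which carries much of the A-type current of dendrites, had 37.8, 23.8 and 26.1 CPM in shUHRF1 and 17.3, 20.6 and 19.3 CPM in shControl. These values did not overlap and were higher in shUHRF1, but Kcnd2 missed the call (log2 fold change 0.62 ± 0.19, adjusted p = 0.051) and passed with DESeq2 (0.0212) and upper-quartile scaling (0.0268). Per length, Kcnd3 was 0.219, 0.444 and 0.590 of Kcnd2 in shUHRF1 and 1.35, 1.05 and 1.62 of it in shControl, so the order of both was turned round in every library. Kcnd1, the most abundant Kv4 gene, had 123.3, 107.5 and 121.0 CPM in shUHRF1 and 120.6, 84.7 and 135.7 CPM in shControl, which overlap.

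Kcnip3, a KChIP also known as the calcium-dependent transcriptional repressor DREAM, had 11.8, 27.1 and 23.01 CPM in shUHRF1 and 67.7, 32.1 and 48.2 CPM in shControl. Its highest shUHRF1 value lay close under its lowest shControl value, both in replicate 2, with a log2 fold change of -1.26 ± 0.35 (edgeR adjusted p = 0.0349). Kcnip4, which removes fast inactivation from Kv4 channels, had 50.2, 25.6 and 18.3 CPM in shUHRF1 and 16.5, 16.7 and 12.3 CPM in shControl. All shUHRF1 values were above all shControl values, yet it was not called (log2 fold change 1.05 ± 0.35, adjusted p = 0.0624), while it passed with the replicate block (0.0192) and with DESeq2 (0.0119). Kcnip1 overlapped between the groups, and Kcnip2 lay below 5 CPM throughout. The Kcnd3 call was lost without shControl replicate 3 (0.052), and the Kcnip3 call without shUHRF1 replicate 1 (0.052) or 3 (0.0834) or shControl replicate 1 (0.112) or 3 (0.0887).

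Kcnc genes encode Kv3 channels, which repolarize fast and allow high firing rates. Kcnc1 had 109.8, 156.3 and 116.9 CPM in shUHRF1 and 88.9, 98.5 and 109.0 CPM in shControl and was not called (adjusted p = 0.128). Kcnc2 and Kcnc4 overlapped between the groups.

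Among tandem-pore Kcnk genes was the largest fall of the called members, that of Kcnk18. Of 14 members, 10 were tested, 5 fell (against 12.4% of all genes), 2 rose (against 11.6%) and 3 were not called. Kcnk18 encodes TRESK, a calcineurin-activated leak channel of sensory ganglia linked to migraine in people. It had 0.135, 0.589 and 0.484 CPM in shUHRF1 and 4.59, 4.47 and 7.701 CPM in shControl, or 3, 10 and 10 reads in shUHRF1 and 79, 69 and 161 reads in shControl. The lowest shControl library had 7.59 times the level of the highest shUHRF1 library, and the log2 fold change was -3.81 ± 0.49 (edgeR adjusted p = 0.00204). Only its shControl reads were enough for a test, so Kcnk18 entered the tested members through the group where it was higher. Kcnk12, which encodes THIK2, had 0.584, 1.53 and 2.47 CPM in shUHRF1 and 7.96, 7.32 and 11.96 CPM in shControl. All shUHRF1 values were well below all shControl values, with a log2 fold change of -2.58 ± 0.46 (adjusted p = 0.00728).

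Of the genes for the mechanically and thermally gated TREK and TRAAK channels, Kcnk2 and Kcnk4 fell and Kcnk10 was not called. Kcnk2 (TREK1) had 1.89, 2.47 and 3.39 CPM in shUHRF1 and 9.93, 6.47 and 14.6 CPM in shControl. The shControl libraries differed among themselves but all lay above the shUHRF1 libraries, and the log2 fold change was -2.002 ± 0.35 (edgeR adjusted p = 0.00664). Kcnk4 (TRAAK) had 9.92, 13.2 and 11.9 CPM in shUHRF1 and 46.05, 31.3 and 31.2 CPM in shControl. The shUHRF1 values were narrow and low, with a log2 fold change of -1.63 ± 0.20 (adjusted p = 0.00178). Kcnk4 shares 587 exon bases with Catsperz on the same strand, a gene that fell as well (log2 fold change -1.94 ± 0.25). The counting set aside 2.12% to 2.27% of entries as ambiguous, and whether reads of these shared bases were among them is not stated. Kcnk10 (TREK2), the most abundant Kcnk gene, had 80.8, 104.5 and 101.1 CPM in shUHRF1 and 77.6, 92.3 and 84.2 CPM in shControl, which overlap, and was not called (log2 fold change 0.17 ± 0.13).

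Kcnk1 (TWIK1), a weak inward rectifying leak channel, had 2.52, 1.47 and 3.05 CPM in shUHRF1 and 9.58, 4.66 and 5.02 CPM in shControl, with replicate 1 the highest of shControl. Its log2 fold change was -1.44 ± 0.38 (edgeR adjusted p = 0.0284). Kcnk5 (TASK2), which opens in alkaline medium, had 1.44, 3.89 and 3.39 CPM in shUHRF1 and 0.697, 1.23 and 0.526 CPM in shControl. Its groups came close, at shUHRF1 replicate 1 and shControl replicate 2, with a log2 fold change of 1.84 ± 0.48 (adjusted p = 0.0288). Kcnk16 (TALK1), known from pancreatic islets, had 0.763, 2.12 and 1.11 CPM in shUHRF1 and 0.523, 0.388 and 0.4305 CPM in shControl, with a log2 fold change of 1.54 ± 0.47 (adjusted p = 0.0464). Kcnk5 and Kcnk16 lie on the same strand of chromosome 14 with 79566 bases between them (GRCm38), and both starts are printed above. The acid-sensitive Kcnk3 and Kcnk9 (TASK1 and TASK3) overlapped between the groups.

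The calls of 3 Kcnk genes were lost with single libraries left out, and each was also lost with library pairs 1 and 3 only. The Kcnk1 call was lost without shUHRF1 replicate 1 (edgeR adjusted p = 0.0517) or 2 (0.0503) or shControl replicate 1 (0.0923) or 3 (0.0553). The Kcnk5 call was lost without shUHRF1 replicate 2 (0.0662) or 3 (0.0944) or shControl replicate 1 (0.103) or 3 (0.11). The Kcnk16 call was lost without shUHRF1 replicate 2 (0.117) or 3 (0.0938), without shControl replicate 1 (0.114), 2 (0.122) or 3 (0.148), with DESeq2 (0.0545) and with limma-voom (0.0784).

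**Figure D5:**
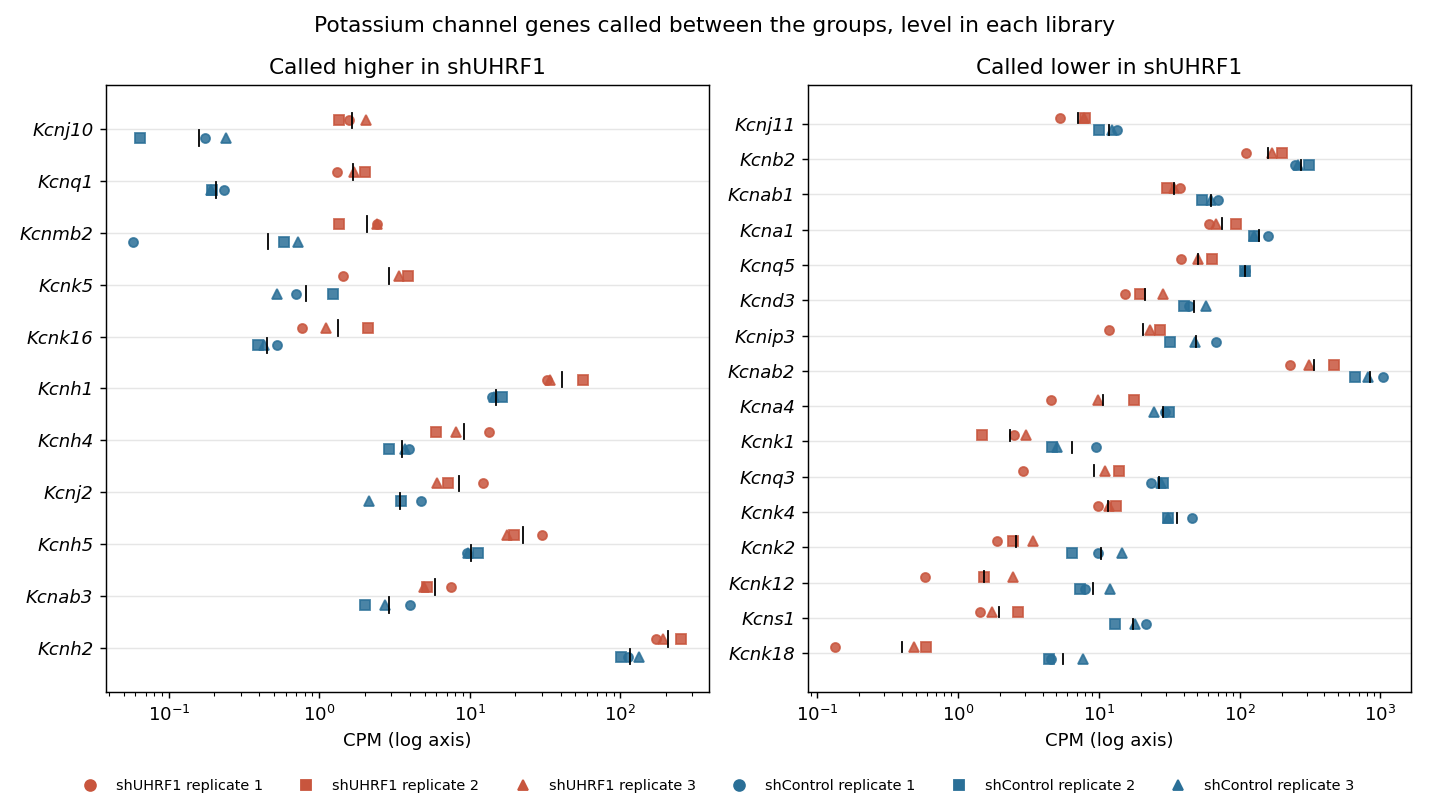
Level of 27 of the 29 called members in each library (horizontal axis, CPM, log scale), with 11 higher in shUHRF1 on the left and 16 lower on the right, shUHRF1 red and above shControl blue, and group means as bars. The groups do not overlap in any row; Kcnj10 and Kcnk18 are among the rows with the widest gaps.

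Inward rectifiers gave 3 calls among 7 tested genes (against 24% of all genes), and 8 of the 15 had too few reads. Kcnj10 encodes Kir4.1, the channel by which satellite glia take up potassium around sensory neurons. It had 1.57, 1.35 and 2.03 CPM in shUHRF1 and 0.174, 0.0647 and 0.239 CPM in shControl, or 35, 23 and 42 reads in shUHRF1 and 3, 1 and 5 reads in shControl. The lowest shUHRF1 library had 5.66 times the level of the highest shControl library. The log2 fold change of 3.27 ± 0.46 was the largest rise of the tested members (edgeR adjusted p = 0.00291). Only its shUHRF1 reads were enough for a test, so Kcnj10 entered the tested members through the group where it was higher. The glial marker list moved in both directions, with 4 of its 6 tested markers higher, 1 (Mbp) lower, and a summed level of 100.8 to 380.3 CPM in shUHRF1 and 337.4 to 412.0 CPM in shControl. Sox10, Fabp7 and Erbb3, 3 of the 4 higher markers, summed to 8.62, 8.42 and 11.04 CPM in shUHRF1 and 0.813, 1.62 and 1.1 CPM in shControl. They were picked from the markers called higher, so the direction of their sum was fixed beforehand. The part of glial RNA in the Kcnj10 result was not tested.

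Kcnj2 (Kir2.1), a strong inward rectifier that holds the resting potential, had 12.2, 7.12 and 6.05 CPM in shUHRF1 and 4.704, 3.496 and 2.15 CPM in shControl. Replicate 1 was the highest library of both groups, and the log2 fold change was 1.299 ± 0.36 (edgeR adjusted p = 0.0361). Kcnj11, the pore of the ATP-sensitive channel, had 5.34, 8.01 and 7.89 CPM in shUHRF1 and 13.4, 10.03 and 12.3 CPM in shControl. The groups were apart by a small margin, with a log2 fold change of -0.76 ± 0.22 (adjusted p = 0.0386). Its sulphonylurea receptor Abcc8, no member of the family by symbol, fell as well (log2 fold change -0.59 ± 0.17, adjusted p = 0.0383), a call lost in 5 of the 6 fits that left out a library, with adjusted p up to 0.106. Kcnj12 (Kir2.2) was the most abundant inward rectifier, with 13.6, 33.7 and 24.8 CPM in shUHRF1 and 37.1, 41.6 and 47.5 CPM in shControl. It lay lower in shUHRF1 in all libraries but was called with the replicate block (0.0199) and DESeq2 (0.0322) and not without a block (log2 fold change -0.81 ± 0.29, adjusted p = 0.0793). Kcnj9, a G protein-gated subunit and the neighbour of Kcnj10 on chromosome 1 at 11891 bases, had 1.21, 0.883 and 1.02 CPM in shUHRF1 and 0.465, 0.583 and 0.526 CPM in shControl (log2 fold change 0.98 ± 0.33, adjusted p = 0.0665).

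The Kcnj2 call was lost without shUHRF1 replicate 1 (edgeR adjusted p = 0.0829) and without shControl replicate 2 (0.0897) or 3 (0.117). It was also lost once exon GC and length were offset (0.0529) and with library pairs 1 and 3 only. The Kcnj11 call was lost without shUHRF1 replicate 1 (0.0663) or 3 (0.0751), without shControl replicate 1 (0.122) or 3 (0.118) and with upper-quartile scaling (0.0644). Kcnj8, the ATP-sensitive pore of mural cells, had 3, 1 and 12 reads in shUHRF1 and 0, 1 and 1 reads in shControl and was not tested.

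No calcium- or sodium-activated pore gene was called, against 24% of all genes: of 8 members, 6 were tested. Kcnma1, the BK channel that shortens spikes, had 25.2, 62.7 and 41.6 CPM in shUHRF1 and 42.4, 67 and 50.5 CPM in shControl, which overlap (edgeR adjusted p = 0.523). Kcnt1, the sodium-activated channel Slack and the most abundant of this class, had 130.5, 126.7 and 94.2 CPM in shUHRF1 and 114.7, 77.9 and 110.1 CPM in shControl, which overlap as well. Kcnn1, an SK channel of the after-hyperpolarization, had 13.2, 14.4 and 17.5 CPM in shUHRF1 and 20.1, 19.2 and 21.9 CPM in shControl. Its groups did not overlap, and it was called with the replicate block (adjusted p = 0.0407) but not without (log2 fold change -0.44 ± 0.15, adjusted p = 0.0729). Kcnu1, a pH-sensitive channel known from sperm, had 6.601, 8.66 and 8.96 CPM in shUHRF1 and 7.96, 8.29 and 8.08 CPM in shControl (log2 fold change -0.01 ± 0.18).

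Among the BK beta subunits, Kcnmb2, which inactivates BK channels, had 2.42, 1.35 and 2.42 CPM in shUHRF1 and 0.0581, 0.583 and 0.717 CPM in shControl. The groups were apart, shControl replicate 1 held a single read, and the log2 fold change was 2.16 ± 0.62 (edgeR adjusted p = 0.0385). Kcnmb4, the neuronal beta subunit, had 2.07, 3.65 and 4.17 CPM in shUHRF1 and 3.25, 3.69 and 4.64 CPM in shControl, which overlap. The Kcnmb2 call was lost without shUHRF1 replicate 1 (0.0754) or 3 (0.114) and without shControl replicate 1 (0.0558), 2 (0.077) or 3 (0.0659). It was also lost with library pairs 1 and 3 only. Of the 5 Kcne genes, single-pass subunits that slow or silence voltage-gated channels, only Kcne1l was tested, at 0.943, 2.002 and 1.11 CPM in shUHRF1 and 1.34, 1.101 and 1.24 CPM in shControl. Kcne4 had 18, 4 and 7 reads in shUHRF1 and 1, 0 and 0 reads in shControl, below the low-count filter. It was called only in the edgeR fit with no such filter (log2 fold change 4.20, adjusted p = 0.00403).

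In all, 28 members fell below the low-count filter, and 25 of these had no more than 12 reads in any library. Kcna10 had no read in the 6 libraries. With no filter, 15 of 92 tested members were called higher and 21 lower (against 6.75% and 7.18% of all genes). Of the 28 below the filter, Kcne4 was called higher and 26 were not called. Of the 26, named after their values were seen, Kcna7 lay lower in every shUHRF1 library, at 5, 4 and 5 reads in shUHRF1 and 10, 6 and 9 reads in shControl (log2 fold change -1.01, adjusted p = 0.345). Kcnk13 lay higher, at 6, 5 and 4 reads in shUHRF1 and 1, 2 and 1 reads in shControl (log2 fold change 1.62, adjusted p = 0.263).

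Genes that assemble with, regulate or balance potassium channels and are not among the 93 members were followed as a list of 43, of which 41 were tested. Of these, 11 rose (26.8%, against 11.6% of all genes), 7 fell (17.1%, against 12.4%) and 23 were not called. The list was chosen with earlier results of these data known, so these shares describe it and are no test of partners as a group. The median log2 fold change of the 41 tested partners was -0.14. The membrane protein Amigo1, which accompanies Kv2 channels, rose (0.601 ± 0.14, edgeR adjusted p = 0.017) while Kcnb2 fell. The scaffold Dlg1 rose (0.79 ± 0.20). The scaffold Dlg2 had 120.3, 32.6 and 27.4 CPM in shUHRF1 and 12.4, 9.84 and 11.5 CPM in shControl, and its log2 fold change was 2.42 ± 0.55, against 1.41 without shUHRF1 replicate 1, the highest library. The Dlg1 call held in 2 and the Dlg2 call in 3 of the 6 fits that left out a library. Also higher were Akap5 (0.705 ± 0.19), which anchors kinases at M channels, the BK gamma subunit Lrrc55 (1.304 ± 0.29) and the Kv suppressor Kcnrg (1.44 ± 0.39). Calm3, 1 of the genes for the calmodulin that M channels carry, fell (-0.700 ± 0.13), and Calm2 was not called. The ubiquitin ligase gene Nedd4l fell (-1.704 ± 0.20). Hcn3, a hyperpolarization-activated channel gene, fell (-0.702 ± 0.15). Among sodium pump subunits, Atp1b3 fell (-1.13 ± 0.14), while Atp1b2 (2.13 ± 0.32), known from glia, rose. The cotransporter gene Slc12a7 (1.33 ± 0.17) rose and Slc12a2 fell (-0.402 ± 0.10). The Kv4 partners Dpp6 and Dpp10 and the Kv1 organizers Cntnap2, Cntn2 and Adam22 were not called. With 1 library left out, 8 of the 18 called partners kept their call in all 6 fits, among them Calm3, Nedd4l, Atp1b2, Atp1b3 and Slc12a7. The Amigo1 call held in 3 of these fits, Lrrc55 in 4, Hcn3 in 5, and Akap5, Kcnrg and Slc12a2 in 2 each. The counts of called partners were 5 higher and 3 lower without shControl replicate 3 (against 5.08% and 5.85% of all genes). They were 5 and 4 without shControl replicate 1 (against 5.66% and 6.58%), and 4 lower without shUHRF1 replicate 3 (against 7.23%).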

How the data were processed

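The authors deposited 1 table of raw read counts per gene for each of 6 libraries, 3 of shUHRF1 and 3 of shControl. Per the submitters' processing notes, the mm10 build was used with STAR, HTSeq, FastQC and DESeq2; the sources used here give no versions, annotation release or strand setting, so overlapping antisense genes cannot be told apart. Summary lines that name no gene were left out of library sizes. They held 8.43% to 17.2% of entries outside genes, 2.12% to 2.27% ambiguous and 30.5% to 37.3% not uniquely aligned. Symbols, biotypes and exon lengths came from GENCODE M21 (GRCm38), matching 47224 identifiers. Counts were tested on all genes with edgeR 4.0.16 in R 4.3.3 (filterByExpr, TMM factors, two-sided quasi-likelihood F test on group, Benjamini-Hochberg adjustment, call below 0.05). CPM and RPKM use TMM-scaled library sizes, and RPKM divides by merged exon length. Standard errors come from the F statistic.

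The genes of the family and the partner and marker lists were chosen with earlier results of these data known. The rule was to name every called member with all values, the most abundant member of each subfamily, members called by DESeq2 or with the block alone, and called partners; some of these genes are not reported here, and counts, sums and shares include them. Libraries sharing a replicate number deviated from their group means alike (r = 0.325, 0.401 and 0.4), unlike other pairs (-0.284 to -0.002). The pairing by number rests on these values alone and on no label. No library appeared to be deposited more than once. Alternatives were DESeq2 1.42.0, limma 3.58.1 voom, RLE and upper-quartile factors, other filters, the replicate block, an offset for GC content and length, library pairs 1 and 3, members with overlapping exons left out, and each library left out. The fit was tested on simulated data. Sequences are from RefSeq; 25 members have no entry in the table used.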

Additional observations from a re-analysis of the deposited data

How the results depend on the processing

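Of 65 members tested in the main fit, 12 were called higher, against 11.6% of all genes. The count was 5 to 9 of 66 or 67 tested with 1 library left out, against 5.08% to 11.3% of all genes. With library pairs 1 and 3 only it was 6 of 67, against 8.73%. In the main fit 17 were called lower, against 12.4% of all genes. With 1 library left out 9 to 19 were, against 5.85% to 12.9% of all genes. The count was 9 when members with overlapping exons were left out, which is fewer genes by construction. The replicate block gave 13 higher and 20 lower; it ended no call and added Kcnip4, Kcnj12, Kcng2 and Kcnn1. Of the members tracked through every fit, 7 changed sign, none of them called. Kcna6 had a log2 fold change of 0.12 with upper-quartile factors, 0.037 with the filter at 2 CPM, and -0.15 to 0.099 with 1 library left out. Kcnu1 had 0.12 with upper-quartile factors, 0.038 with that filter and -0.100 to 0.117 with 1 library left out. With library pairs 1 and 3 only, Kcnd1 had -0.076, Kcne1l -0.331, Kcnh6 -0.124 and Kcnt1 -0.007. With 1 library left out, Kcnd1 had -0.145 to 0.182, Kcne1l -0.279 to 0.328, Kcnh6 -0.038 to 0.179 and Kcnmb4 -0.452 to 0.013. Of the 43 partner genes, whose alternatives were chosen after seeing the data, 11 were called higher in the main fit (against 11.6% of all genes). The number was 5 to 10 with 1 library left out (against 5.08% to 11.3%) and 7 with library pairs 1 and 3 only (against 8.73%). Called lower were 7 in the main fit (against 12.4%) and 3 to 7 with 1 library left out (against 5.85% to 12.9%). Upper-quartile factors gave 4 lower (against 8.85%), and the replicate block with the GC and length offset gave 13 (against 20%). The cause of these changes was not tested. With 3 libraries a group, rare members rest on few reads, and 28 fell below the low-count filter.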
